A study of Mus musculus with 9 samples.

Results

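Transcripts of 7 genes of the MS4A (membrane-spanning 4A) family were compared across regulatory T cell (Treg) libraries of the injured heart, the mediastinal lymph node (MLN) and the spleen of mice. The genes were Ms4a4a, Ms4a4b, Ms4a4c, Ms4a6b, Ms4a6c, Ms4a6d and Ms4a7, found by symbol among the 49510 genes of the deposited count table. The family was chosen by its measured counts, because Ms4a4a was strongly higher in the heart. Levels in the heart against another organ therefore describe the choice. Calls of these 7 genes there are counted below but are no independent test. The difference between MLN and spleen did not enter the choice and was tested. Ms4a4a, Ms4a6c, Ms4a6d and Ms4a7 were higher in each heart library than in any lymphoid library, whereas Ms4a4b, Ms4a4c and Ms4a6b overlapped between the organs.

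MS4A proteins cross the membrane several times, and many of them sit beside immune receptors and tune their signalling or traffic. The best known relatives mark other cells: Ms4a1 encodes CD20 of B cells, and Ms4a2 encodes the beta chain of the high-affinity IgE receptor of mast cells. Ms4a4b and Ms4a6b are known from mouse T cells, where Ms4a4b associates with the costimulatory receptor GITR (Tnfrsf18), while Ms4a4a, Ms4a6d and Ms4a7 are known from macrophages and related myeloid cells.

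All 9 libraries came from Foxp3-GFP mice, which carry a fluorescent reporter of the Treg transcription factor Foxp3. The animals were 8 weeks old and had undergone ischemia/reperfusion (I/R) injury of the heart 3 days earlier, so no group was uninjured. Tregs of heart, MLN and spleen were enriched magnetically and then sorted by fluorescence, with 3 libraries per organ made with a SMARTer kit for very low RNA input. Whether the libraries of an organ are separate animals or pools is not given, so a p-value covers no more than the spread among the libraries, which may be technical.

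Library totals ranged from 156194012 to 267520538 counts. Levels are in CPM, each count relative to the total of its library after scaling by trimmed mean of M-values, and organ means carry the SD of their 3 libraries. The largest scaling factors fell to spleen 3 (1.24), MLN 3 (1.17) and heart 2 (1.11), and heart 2 was the lowest heart library for each of the 7 genes. Foxp3 itself stood at 8.77, 38.0 and 0.240 CPM in heart libraries 1, 2 and 3, at 41.8 to 46.3 CPM in MLN and at 31.2 to 187.3 CPM in spleen. It was thus nearly absent from heart 3. The 10 Treg markers together took 0.116% to 0.206% of counts in heart, 0.362% to 0.488% in MLN and 0.343% to 0.460% in spleen.

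The 7 genes lie together on chromosome 19 of GRCm38, between bases 11321039 and 11604849, a span of 283.8 kb with 16 annotated gene models, 14 of which had a count. Ms4a7 (11321039 to 11336146, minus strand) comes first, then Ms4a4a (11375523 to 11392790), Ms4a4c (11404770 to 11427246), Ms4a4b (11443553 to 11467055), Ms4a6c (11469366 to 11482192) and Ms4a6b (11516512 to 11531256), which are on the plus strand. Ms4a6d (11586604 to 11604849, minus strand) comes last. Genes that stood apart in the heart and genes that overlapped between organs alternate along this stretch: Ms4a4c and Ms4a4b lie between Ms4a4a and Ms4a6c, and Ms4a6b lies between Ms4a6c and Ms4a6d.

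**Figure D1:**
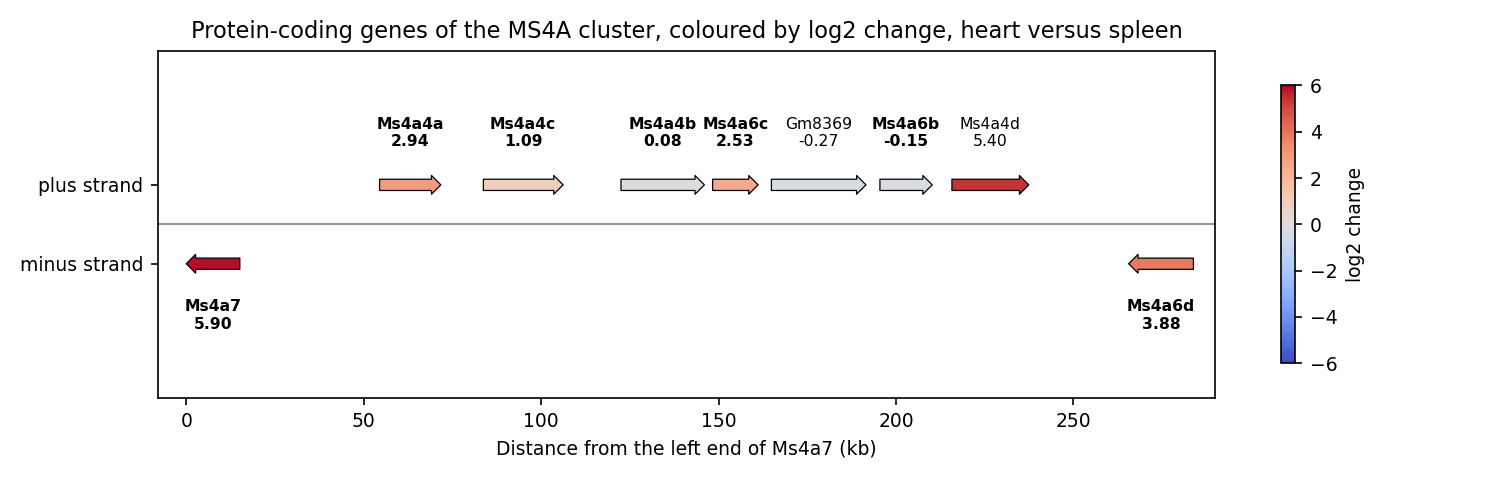
Map of the MS4A stretch of chromosome 19, with distance in kb from its first base on the horizontal axis and the protein-coding genes drawn to scale on their strands, coloured and numbered by the log2 difference between heart and spleen. Ms4a4a, Ms4a6c, Ms4a6d and Ms4a7, whose heart libraries stood above the lymphoid ones, alternate with Ms4a4c, Ms4a4b and Ms4a6b.

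Close relatives in the coding sequence did not always share a pattern. Ms4a6b and Ms4a6c were 85.4% identical over their aligned coding bases, Ms4a6b and Ms4a6d 81.2%, and Ms4a6c and Ms4a6d 79.0%. Of these, Ms4a6c and Ms4a6d stood apart in the heart and Ms4a6b did not. Ms4a4b and Ms4a4c were 91.7% identical and overlapped between organs, while Ms4a4a was 65.7% identical to Ms4a4b and 68.2% to Ms4a4c. Ms4a4d, a neighbour outside the 7 genes, was 85.6% identical to Ms4a4b and 87.9% to Ms4a4c, and its heart libraries did not overlap the lymphoid ones.

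Sequence before the transcription start was compared in the same way, because paired genes with like and unlike patterns can be set side by side there. RefSeq start sites on GRCm38.p6 were matched for 6 of the 7 genes (not Ms4a6d), and the 250 bases before a single start of each gene were aligned. For Ms4a7, which has a further matched start, the aligned window lies within the annotated gene. Ms4a4b and Ms4a4c were 78.9% identical over 232 aligned bases, with 6 identical runs of at least 12 bases, the longest 20 bases. Ms4a6b and Ms4a6c were 85.1% identical over 175 aligned bases, with 2 such runs, the longest 48 bases. The other pairs were 56.1% to 66.1% identical and shared no such run. The stretches are printed 5′ to 3′ on the plus strand, as upstream bases of a RefSeq start that lie in no annotated exon of the gene, and capitals mark the runs shared within a pair (Ms4a4b with Ms4a4c, and Ms4a6c with Ms4a6b). Ms4a4a, the gene that prompted the choice, has none. In Ms4a4b the last 2 runs lie side by side and read as a single block of capitals, while a lower-case base parts them in Ms4a4c. The 48-base run of Ms4a6c is cut where its printed stretch ends. The Ms4a4c stretch lies within the annotated gene, in an intron of a longer transcript that starts further upstream. The Ms4a4a stretch ends shortly before the annotated start of its gene. The Ms4a6b window, which is not printed, also lies within its annotated gene. They are Ms4a4b (chr19:11443308-11443552), Ms4a4c (chr19:11407411-11407660), Ms4a6c (chr19:11469118-11469365) and Ms4a4a (chr19:11375238-11375487).
Ms4a4b: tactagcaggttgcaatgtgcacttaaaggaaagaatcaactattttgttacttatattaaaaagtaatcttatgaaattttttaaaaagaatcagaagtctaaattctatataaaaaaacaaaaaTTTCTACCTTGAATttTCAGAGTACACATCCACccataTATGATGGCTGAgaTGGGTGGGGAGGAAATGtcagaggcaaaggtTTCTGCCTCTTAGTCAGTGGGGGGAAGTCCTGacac
Ms4a4c: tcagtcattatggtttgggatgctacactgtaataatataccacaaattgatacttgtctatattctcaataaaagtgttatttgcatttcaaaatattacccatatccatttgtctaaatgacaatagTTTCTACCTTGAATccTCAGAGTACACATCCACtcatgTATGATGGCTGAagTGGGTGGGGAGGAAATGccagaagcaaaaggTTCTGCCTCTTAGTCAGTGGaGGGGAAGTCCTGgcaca
Ms4a6c: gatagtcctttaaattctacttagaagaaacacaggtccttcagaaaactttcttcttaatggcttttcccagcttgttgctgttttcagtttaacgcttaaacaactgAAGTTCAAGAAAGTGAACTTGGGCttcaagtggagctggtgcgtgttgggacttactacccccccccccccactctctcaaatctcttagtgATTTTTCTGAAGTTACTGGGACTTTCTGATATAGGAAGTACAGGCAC
Ms4a4a: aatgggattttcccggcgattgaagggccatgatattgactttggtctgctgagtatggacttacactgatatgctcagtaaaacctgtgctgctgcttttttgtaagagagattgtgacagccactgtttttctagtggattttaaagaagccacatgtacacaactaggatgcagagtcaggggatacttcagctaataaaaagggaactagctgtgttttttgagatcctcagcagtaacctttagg

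The shared runs of the Ms4a4b and Ms4a4c stretches crowd toward the start, and the distal bases of both are largely lower case. Motifs bound by myeloid, lymphoid or stress factors were searched on both strands of these 250-base windows, and each is given with its share of 32851 mouse windows of equal length. They were GAGGAAGT for PU.1 (2.44%), TTGCNNAA for C/EBP (9.56%), the interferon response element (2.98%), TGTGGT for RUNX (14.1%) and TGANTCA for AP-1 (6.75%). The RUNX letters occurred in the Ms4a4c window, 211 bases before the start on the opposite strand. The AP-1 letters occurred in 1 of the windows of Ms4a7, 81 bases before the start. That window lies within the annotated gene, and the window before the annotated start of Ms4a7 held none of the searched letters. The windows of Ms4a4a, Ms4a4b, Ms4a6b and Ms4a6c held none of the searched letters.

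Among the genes known from macrophages, Ms4a4a, whose human counterpart works with the fungal receptor Dectin-1, stood at 561.5, 413.6 and 748.6 CPM in heart libraries 1, 2 and 3. Its level was 42.7, 47.4 and 31.2 CPM in MLN and 100.8, 60.1 and 64.2 CPM in spleen. Each heart library was above each lymphoid library, and each MLN library was below each spleen library. The mean was 574.6 ± 167.9 CPM in heart, 40.4 ± 8.36 in MLN and 75.0 ± 22.4 in spleen (SD, n = 3). The fitted difference was 2.94 on the log2 scale (SE 0.39, 7.66-fold) against spleen and 3.83 (SE 0.40, 14.2-fold) against MLN. Because these are sorted bulk samples, a change in the number of cells of a type and a change in RNA per cell cannot be told apart here or below.

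Ms4a6d, which in mouse macrophages works with the inhibitory receptor Vsig4, stood at 1733, 857.9 and 1625 CPM in heart libraries 1, 2 and 3. It stood at 120.4, 103.1 and 54.0 CPM in MLN and at 98.7, 130.2 and 58.4 CPM in spleen. The heart libraries were apart from all 6 others, while MLN and spleen overlapped. Its heart mean of 1405 ± 477.2 CPM compared with 92.5 ± 34.5 in MLN and 95.8 ± 36.0 in spleen (SD, n = 3). The log2 difference was 3.88 (SE 0.51, 14.7-fold) against spleen and 3.93 (SE 0.51, 15.2-fold) against MLN.

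Ms4a7, a marker of tissue macrophages and microglia, had the most uneven heart level, at 776.5, 87.1 and 142.7 CPM in heart libraries 1, 2 and 3. It was near absent elsewhere, at 0.288, 5.47 and 0 CPM in MLN and at 2.13, 9.16 and 5.59 CPM in spleen. Heart 1 thus held most of the heart signal, but the lowest heart library was still above the highest lymphoid one. The mean was 335.4 ± 383 CPM in heart, 1.92 ± 3.08 in MLN and 5.63 ± 3.52 in spleen (SD, n = 3). The log2 difference was 5.90 (SE 2.16) against spleen and 7.45 (SE 2.32) against MLN. Without heart 1 these were 4.35 and 5.90, and without MLN 2 the difference to MLN was 11.18.

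Ms4a6c, the near relative of Ms4a6b, stood at 1033, 503.4 and 1668 CPM in heart libraries 1, 2 and 3. Its level was 78.5, 109.5 and 42.3 CPM in MLN and 235.8, 155.8 and 162.9 CPM in spleen. The organs were fully separated, with heart above spleen and spleen above MLN. The mean of 1068 ± 583 CPM in heart compared with 76.8 ± 33.6 in MLN and 184.8 ± 44.3 in spleen (SD, n = 3). The log2 difference was 2.53 (SE 0.54, 5.78-fold) against spleen and 3.80 (SE 0.57, 13.9-fold) against MLN. Of its 50-base words, 51.4% also occur in another gene model, nearly all of them in BE692007, which overlaps it on the opposite strand. BE692007 stood at 17.4 ± 6.76 CPM in heart, 57.9 ± 13.1 in MLN and 54.0 ± 27.4 in spleen, the opposite direction to Ms4a6c (edgeR adjusted p = 0.188 against spleen and 0.144 against MLN). Since the strand setting of the counting is not known, reads of this overlapping pair are uncertain.

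The genes known from T cells behaved otherwise. Ms4a4b stood at 1903, 1144 and 3240 CPM in heart libraries 1, 2 and 3, at 3347, 3375 and 1584 CPM in MLN and at 3443, 1460 and 1061 CPM in spleen. The mean was 2096 ± 1061 CPM in heart, 2769 ± 1026 in MLN and 1988 ± 1276 in spleen (SD, n = 3). The organs overlapped, and no 2 means lay as far apart as 1 SD. The log2 difference was 0.08 (SE 0.58) against spleen and -0.40 (SE 0.58) against MLN, and the sign against spleen turned without spleen 2 (-0.08), spleen 3 (-0.23) or heart 3 (-0.38).

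Ms4a6b stood at 1007, 367.8 and 1267 CPM in heart libraries 1, 2 and 3, at 1685, 1784 and 731.2 CPM in MLN and at 1488, 920.0 and 514.7 CPM in spleen. Libraries high for Ms4a4b were high for Ms4a6b too, and again no organ stood apart. The mean was 880.8 ± 462.8 CPM in heart, 1400 ± 581.2 in MLN and 974.1 ± 488.8 in spleen (SD, n = 3). The log2 difference was -0.15 (SE 0.59) against spleen and -0.67 (SE 0.59) against MLN, and the sign against spleen turned without spleen 1 (0.30) or heart 2 (0.22).

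Ms4a4c, the near relative of Ms4a4b, stood at 1936, 773.3 and 3076 CPM in heart libraries 1, 2 and 3. It was even in MLN, at 1103, 1005 and 1101 CPM, and spread widely in spleen, at 1586, 785.9 and 339.8 CPM. Although 2 heart libraries were the highest of all 9, heart 2 was below every MLN library. Its mean was 1928 ± 1151 CPM in heart, 1070 ± 56.1 in MLN and 903.8 ± 631.4 in spleen (SD, n = 3). On the log2 scale the difference was 1.09 (SE 0.63) against spleen and 0.85 (SE 0.63) against MLN. Without spleen 1 the difference to spleen was 1.78, and without heart 3 it was 0.58. Of its 50-base words, 8.19% occur in another gene, nearly all of them in Ms4a4b, so a part of the reads of that pair is uncertain.

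**Figure D2:**
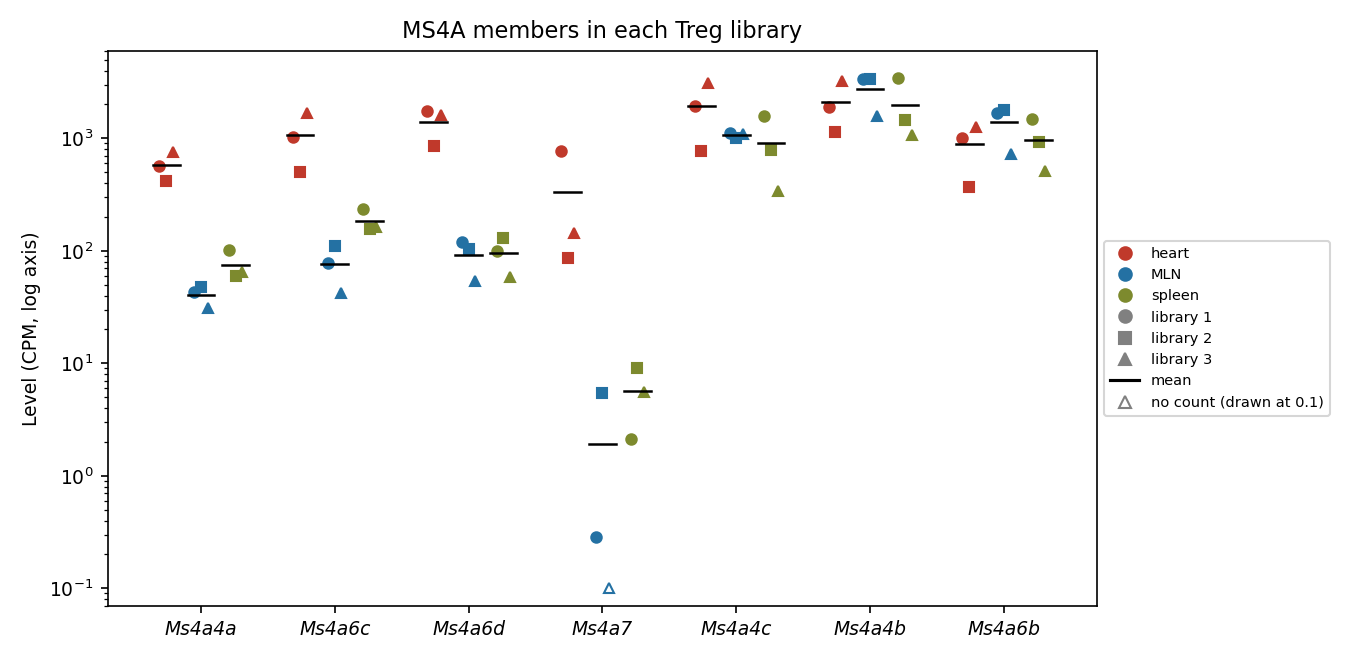
Level of each of the 7 genes in each library, in CPM on a log axis, with points for libraries, black lines for the mean of each organ and an open point for the library with no count. The 3 heart points of Ms4a4a, Ms4a6c, Ms4a6d and Ms4a7 lie above all lymphoid points. For Ms4a4b, Ms4a4c and Ms4a6b the ranges of heart and lymphoid points overlap. Heart 1 and heart 3 lie above all lymphoid points for Ms4a4c, and heart 2 lies below them all for Ms4a6b.

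Over the 7 genes, 4 of 7 did not overlap between heart and spleen, all higher in heart, beside 12.4% of the 16609 genes tested. Against MLN these were again 4 of 7, beside 14.9% of genes. By edgeR's quasi-likelihood test with an adjusted p below 0.05, Ms4a4a and Ms4a6d passed against spleen (2 of 7, beside 0.614% of genes called higher in heart). Ms4a4a, Ms4a6c and Ms4a6d passed against MLN (3 of 7, beside 1.1%). As the rule used these contrasts, the counts describe the choice. The median log2 difference of the 7 genes was 2.53 against spleen and 3.80 against MLN, and over all genes tested it was 0.02 and 0.12. Both calls against spleen were lost without any 1 of the heart or spleen libraries. The call of Ms4a4a against MLN was lost without MLN 1 or heart 3. The calls of Ms4a6c and Ms4a6d against MLN were lost without any 1 MLN library, heart 1 or heart 3. Without heart 3, the library nearly lacking Foxp3, the log2 difference to spleen was 2.70 for Ms4a4a and 3.76 for Ms4a6d. Heart 1, which stayed in that fit, also had less Foxp3 than each lymphoid library. The part of Treg purity in these differences was not tested.

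Between MLN and spleen, the contrast that did not choose the genes, 0 of 7 genes were called by edgeR, and 0% of all 16609 genes were. At an unadjusted p below 0.05 edgeR marked 955 genes (5.75%), and DESeq2 called 813 genes and limma-voom 3, none of them among the 7. The log2 difference of Ms4a4a, MLN minus spleen, was -0.89 (SE 0.36, edgeR unadjusted p = 0.0379, adjusted p = 0.839). That of Ms4a6c was -1.27 (SE 0.51, edgeR unadjusted p = 0.0374, adjusted p = 0.839). These 2 of 7 genes did not overlap between MLN and spleen, beside 4.56% of genes that were likewise higher in every spleen library. Ms4a4b (0.48, SE 0.58), Ms4a6b (0.52, SE 0.59), Ms4a4c (0.24, SE 0.62), Ms4a6d (-0.05, SE 0.46) and Ms4a7 (-1.55, SE 1.79) overlapped, each with an adjusted p of 1 by edgeR. The difference of Ms4a7 was -5.29 without MLN 2 and -0.96 without MLN 3. Without spleen 1, that of Ms4a4b was 1.14 and that of Ms4a4c 0.93.

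**Figure D3:**
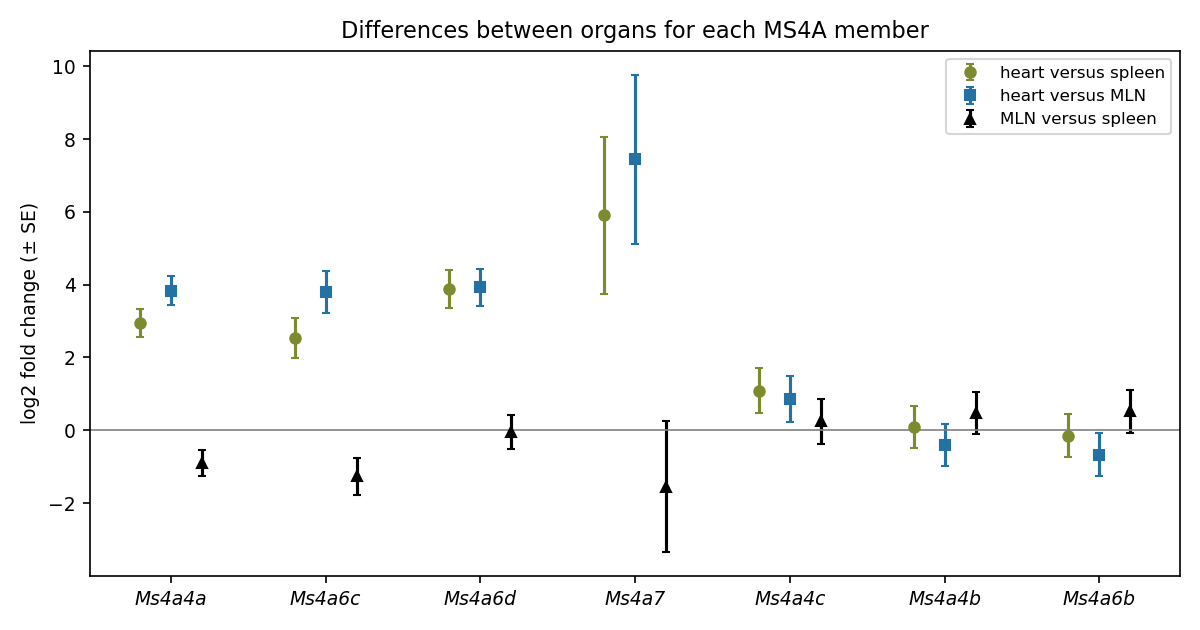
Fitted log2 difference with its SE for each of the 7 genes in the 3 comparisons of organs. Differences of the heart range from -0.67 for Ms4a6b to 7.45 for Ms4a7 against MLN, and in this fit of all 9 libraries MLN against spleen ranges from -1.55 for Ms4a7 to 0.52 for Ms4a6b.

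Levels of different genes were set side by side per kilobase of annotated exon. In the heart the order of mean CPM per kb was Ms4a4c (1101), Ms4a6d (810.0), Ms4a4a (687.3), Ms4a6c (521.0), Ms4a4b (238.7), Ms4a6b (196.4) and Ms4a7 (75.3), and each neighbour in that order overlapped the next. In MLN Ms4a4c (610.8) was above Ms4a4b (315.3) in every library, Ms4a4b overlapped Ms4a6b (312.1), and Ms4a6b was above Ms4a6d (53.3). Ms4a4a (48.4) and Ms4a6c (37.4) overlapped their neighbours there, and Ms4a7 (0.431) was below the rest. In spleen Ms4a4c (516.2), Ms4a4b (226.4), Ms4a6b (217.2), Ms4a6c (90.2), Ms4a4a (89.7) and Ms4a6d (55.2) each overlapped the next, and Ms4a7 (1.26) was below them. With the length of the longest coding transcript the order of genes was unchanged in each organ, but Ms4a4c then overlapped Ms4a4b in MLN and Ms4a6b stood above Ms4a6c in spleen.

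The shares of most of the 7 genes in the family's counts differed between heart and the lymphoid organs, while the total overlapped. The sum of the 7 genes was 8950, 4147 and 11770 CPM in heart libraries 1, 2 and 3, 6376, 6429 and 3543 CPM in MLN and 6954, 3521 and 2207 CPM in spleen, so the organs overlapped. Ms4a4a, Ms4a6c, Ms4a6d and Ms4a7 together made up 35.6% to 45.9% of that sum in the heart libraries and 3.60% to 13.2% in the lymphoid ones. These genes were grouped because they were higher in each heart library, so their larger share there describes the grouping and is no test. The share of Ms4a4b was 25.5% ± 3.64 in heart, 49.9% ± 4.5 in MLN and 46.4% ± 4.30 in spleen (SD, n = 3). That of Ms4a6b was 10.3% ± 1.26 in heart, 24.9% ± 3.78 in MLN and 23.6% ± 2.38 in spleen. Ms4a4c kept a like share, with 22.1% ± 3.77 in heart, 21.3% ± 8.47 in MLN and 20.2% ± 4.15 in spleen. These shares sum to the whole, so a rise of one gene lowers the others.

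**Figure D4:**
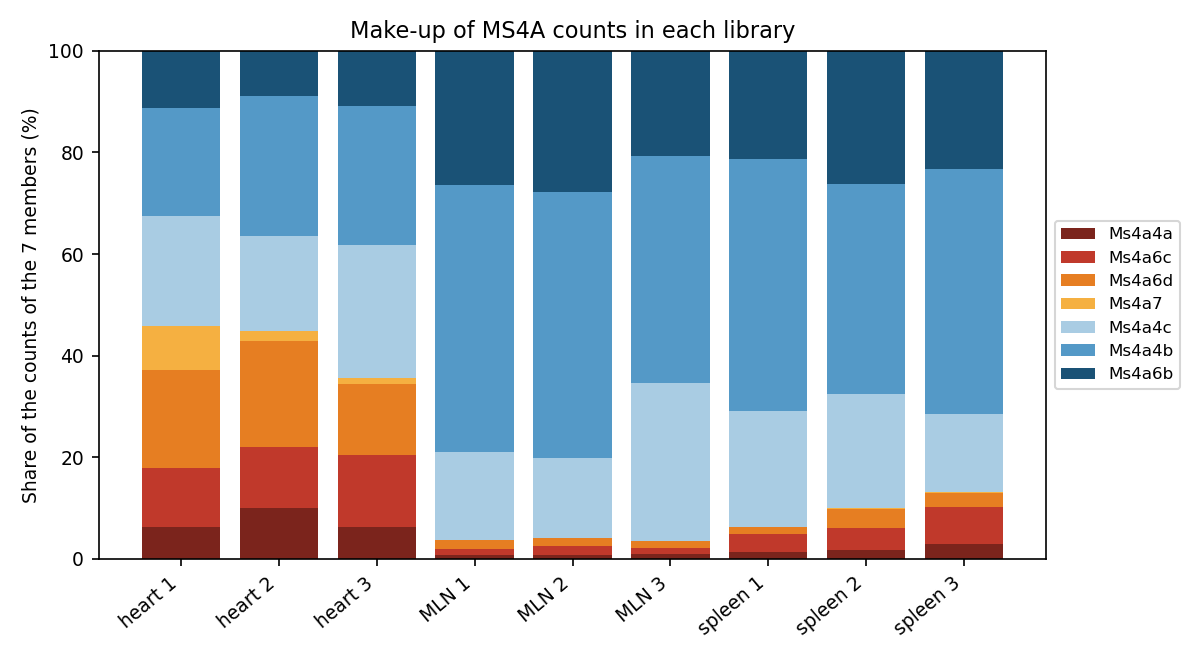
Share of each gene in the summed counts of the 7 genes, in percent, as a stacked bar from 0 per library. Ms4a4b is the widest band in each MLN and spleen bar. Ms4a6b is the next widest there except in MLN 3 and spleen 1, where Ms4a4c is. Ms4a6d, Ms4a6c, Ms4a4a and Ms4a7 fill 35.6% to 45.9% of the heart bars.

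Markers of other cells differed between the organs as well. The 20 macrophage and monocyte markers summed to 1.65% to 2.59% of counts in heart, 0.690% to 0.733% in MLN and 0.669% to 0.938% in spleen. Of them 3 of 20 rose in heart against spleen (Cd68, Fcgr3 and Ccr2) and 7 of 20 against MLN, 0 fell, and Cd163 was at 0 in every MLN library. Over all genes tested, 0.614% were called higher in heart against spleen and 1.1% against MLN. Fibroblast markers (10) took 0.284% to 1.45% of heart counts, with 4 higher against spleen and 3 against MLN, and at most 0.00191% of a lymphoid library. Neutrophil markers (10, with 6 tested) took 0.0587% to 0.321% of heart counts and at most 0.00432% elsewhere, none called, with Elane and Camp at 0 in the heart. Mast cell markers (9, with 8 tested) took 0.621%, 0.598% and 0.00412% of counts in heart libraries 1, 2 and 3 and at most 0.00593% elsewhere, and 1 of them was called higher against MLN (Cma1). The part of these cells in the levels of the 7 genes was not tested.

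In the other direction, the 10 B cell markers took 0.00187% to 0.00580% of heart counts, 0.0315% to 0.255% in MLN and 0.0952% to 0.130% in spleen. Among them Blk, a kinase of B cell receptor signalling, was at 0 in each heart library and was called lower there against both organs, beside 0.175% of all genes against spleen and 0.283% against MLN. The 15 pan-T cell markers took 0.307% to 0.581% in heart, 0.890% to 0.980% in MLN and 0.742% to 1.01% in spleen, with none called. None of the 10 dendritic cell markers and none of the 10 cytotoxic and NK cell markers was called in any comparison. Among the 10 Treg markers Ikzf2, encoding the transcription factor Helios, fell in heart against both organs (edgeR adjusted p = 0.0492 and 0.0344), and Izumo1r fell against MLN (adjusted p = 0.0419).

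Levels of the 7 genes were therefore also set against these marker sums. Per 100 CPM of the macrophage markers without Ctss, which alone was 49.9% to 95.0% of that list, Ms4a4a was 4.67, 5.53 and 5.61 in heart libraries 1, 2 and 3. The 6 lymphoid libraries ran from 2.25 to 11.7, so on this ratio the organs overlapped. Of the markers left, Lyz2 had the highest mean in each organ (5166 CPM in heart, 416.6 in MLN and 953.8 in spleen), so it weighs most in this ratio. Ms4a6d was 11.5 to 14.4 in heart, which was above spleen (2.04 to 8.24) and overlapped MLN (7.06 to 33.0). Ms4a6c overlapped both, with 6.73 to 12.5 in heart against 5.71 to 19.7 in spleen and 5.54 to 21.5 in MLN. For Ms4a7 the ratio was 6.46, 1.16 and 1.07 in heart against 0 to 0.639 elsewhere, which did not overlap. Ms4a4b was 15.3 to 24.3 in heart against 37.2 to 916.6, and Ms4a6b was 4.92 to 9.50 against 18.0 to 461.4, both lower in the heart. With Ctss kept in the list, Ms4a4a was 1.70 to 2.77 in heart against 0.527 to 1.34 elsewhere, and Ms4a6d was 5.19 to 5.75 against 0.771 to 1.97, neither overlapping. Ms4a6c with Ctss kept was 3.12 to 5.33 in heart against 0.716 to 3.13 elsewhere, which overlapped. Per 100 CPM of the pan-T cell markers, Ms4a4b was 21.8 to 87.2 in heart, 20.8 to 34.7 in MLN and 13.0 to 46.2 in spleen, while Ms4a4a was 7.88 to 20.2 in heart against 0.409 to 1.35 elsewhere.

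**Figure D5:**
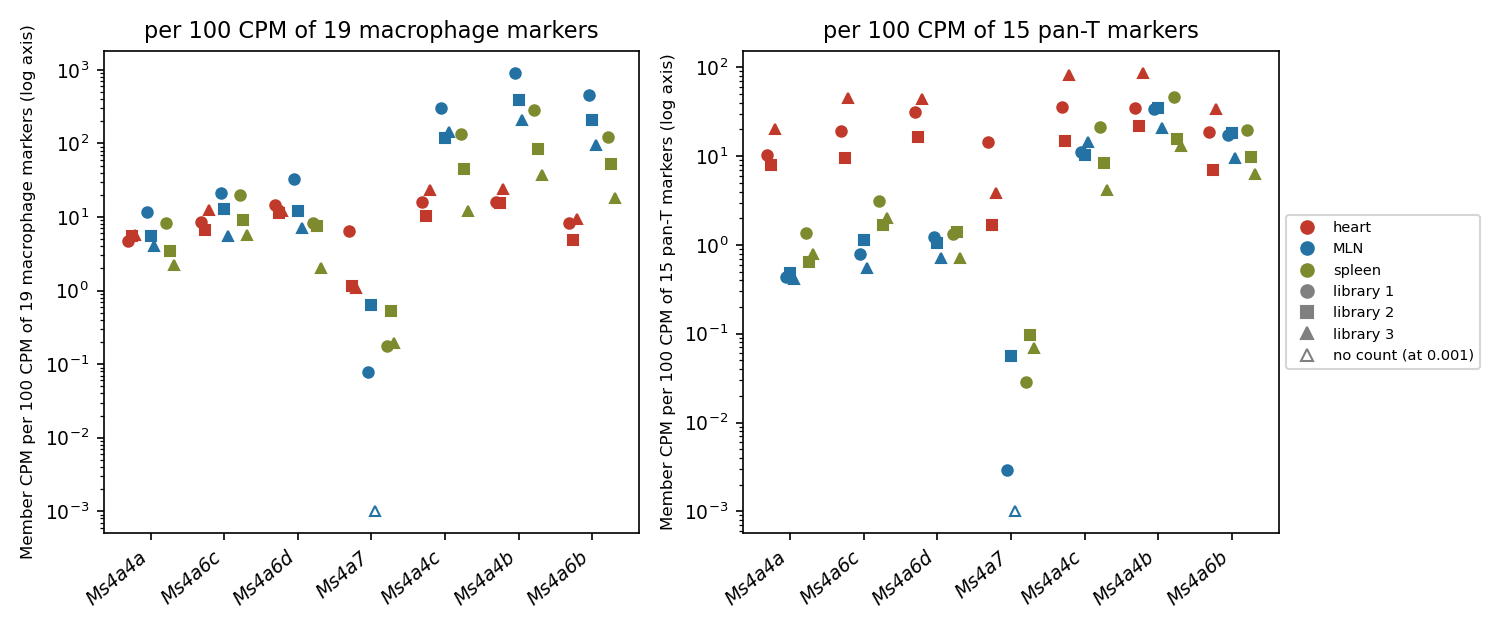
Level of the genes relative to summed marker levels in each library, on a log axis, per 100 CPM of the 19 macrophage markers without Ctss (left) and of the 15 pan-T cell markers (right), with an open point for a library with no count. On the macrophage ratio the heart points of Ms4a4a lie within the lymphoid range of 2.25 to 11.7, and those of Ms4a7 (1.07 to 6.46) lie above that gene's own lymphoid range of 0 to 0.639.

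Of the 15 other superfamily genes listed, 13 were in the table, 8 had a count and 7 could be tested, and none was called in any comparison of organs. Ms4a4d, which lies in the same stretch between Ms4a6b and Ms4a6d, stood at 748.3, 56.0 and 331.8 CPM in heart libraries 1, 2 and 3. Its mean was 9.78 ± 8.85 CPM in MLN and 8.95 ± 7.48 in spleen (SD, n = 3), and its heart libraries did not overlap the others (edgeR adjusted p = 0.313 against spleen and 0.279 against MLN). Ms4a8a averaged 89.9 ± 47.3 CPM in heart, 3.89 ± 5.01 in MLN and 10.02 ± 11.17 in spleen (edgeR adjusted p = 0.753 against spleen and 0.486 against MLN). Ms4a14 was counted in each heart library (3.74, 1.05 and 0.887 CPM) and at 0 in all lymphoid ones (edgeR adjusted p = 0.122 against spleen). Its heart mean was 129.3-fold the floor of 3 counts per library in spleen, which is no lower bound of the difference. The B cell gene Ms4a1 averaged 1.25 ± 2.12 CPM in heart, 156.5 ± 83.8 in MLN and 181.1 ± 91.8 in spleen (edgeR adjusted p = 0.163 against spleen and 0.153 against MLN). The mast cell gene Ms4a2 stood at 5.66, 4.10 and 0 CPM in heart libraries 1, 2 and 3, and at 0 elsewhere except for MLN 1 (1.72 CPM). Heart 3, with no count of Ms4a2, had the highest levels of Ms4a4a and Ms4a6c. Heart 1, with the most Ms4a2, had the highest levels of Ms4a6d and Ms4a7. The part of mast cells in these levels was not tested. The relatives Tmem176a and Tmem176b overlapped between organs, with heart means of 35.7 ± 9.38 and 82.4 ± 28.8 CPM. Ms4a3, a gene of granulocyte precursors, was counted in spleen 2 alone (4.70 CPM).

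A list of 12 genes of partners and signalling was examined, of which 11 could be tested. Against spleen 1 of 11 rose in heart (Trem2), and against MLN 5 of 11 rose (Trem2, Tyrobp, Fcer1g, Fcgr2b and Cd14), with 0 lower in either. Over all genes tested, the share called higher in heart was 0.614% against spleen and 1.1% against MLN. Trem2, a lipid receptor of macrophages whose soluble form is linked to the MS4A region in human genetics, stood at 41.2, 20.9 and 28.9 CPM in heart libraries 1, 2 and 3. It had no count in the 6 lymphoid libraries (edgeR adjusted p = 0.0408 against spleen and 0.0343 against MLN). Its heart mean was 2076-fold the floor of 3 counts per library in spleen and 2302-fold that in MLN. The floor covers counting error only, so these folds are not lower bounds of the difference. Tyrobp, the signalling adaptor of Trem2, averaged 2359 ± 1398 CPM in heart, 109.6 ± 14.97 in MLN and 381.3 ± 142.4 in spleen (edgeR adjusted p = 0.0215 against MLN and 0.0704 against spleen). Fcer1g, the shared chain of activating Fc receptors, averaged 3048 ± 1825 CPM in heart against 154.4 to 158.1 in MLN (edgeR adjusted p = 0.023 against MLN). The inhibitory Fc receptor Fcgr2b averaged 225.0 ± 38.2 CPM in heart against 17.3 to 42.0 in MLN (edgeR adjusted p = 0.0319 against MLN), and the endotoxin co-receptor Cd14 averaged 249.2 ± 16.9 CPM in heart against 0.0348 to 0.630 in MLN (edgeR adjusted p = 0.0193 against MLN). Cd14 is also one of the 20 macrophage markers.

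Vsig4, the partner of Ms4a6d, was uneven, with 255.5, 0 and 333.9 CPM in heart libraries 1, 2 and 3 and 0 elsewhere. It did not pass the count filter, which asks for a minimum count in more libraries, and was not tested. Heart 2 thus held 857.9 CPM of Ms4a6d with no count of Vsig4. Clec7a, encoding Dectin-1, averaged 133.1 ± 69.8 CPM in heart, 5.21 ± 5.68 in MLN and 19.8 ± 20.2 in spleen (edgeR adjusted p = 0.662 against spleen and 0.310 against MLN). Tnfrsf18, the partner of Ms4a4b, averaged 175.5 ± 43.3 CPM in heart, 295.6 ± 34.0 in MLN and 205.3 ± 90.2 in spleen. Its log2 difference was -0.23 against spleen (edgeR adjusted p = 0.95) and -0.75 against MLN (adjusted p = 0.394), where the libraries did not overlap.

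Across the 9 libraries the levels of the 7 genes fell into like and unlike patterns, given as Pearson's r of log2 CPM. The points are 3 organs of 3 libraries with shared depth and handling, so r is a description only. Ms4a4a ran with Ms4a6c (0.98), Ms4a6d (0.96) and Ms4a7 (0.85), and Ms4a4b ran with Ms4a6b (0.93) and Ms4a4c (0.68). Between those sets r was -0.01 for Ms4a4a with Ms4a4b. Ms4a4c lay between, at 0.55 with Ms4a6b, 0.54 with Ms4a4a, 0.53 with Ms4a6c, 0.61 with Ms4a6d and 0.27 with Ms4a7.

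Among 7800 genes with a mean of at least 10 CPM, the 5 most like Ms4a4a were Ctsc (0.989), Zeb2 (0.984), Slc10a6 (0.981), Sh3pxd2b (0.977) and Ms4a6c (0.975). Ctsc, encoding the protease cathepsin C, averaged 939.8 CPM in heart, 198.7 in MLN and 273.9 in spleen, and it was also the gene most like Ms4a6c (0.980). Next for Ms4a6c were Daam1 (0.976), Alox5ap (0.975), Ms4a4a (0.975) and Tyrobp (0.964). For Ms4a6d they were Ctnna1 (0.987), the ferritin heavy chain gene Fth1 (0.984), Cd9 (0.982), the protease inhibitor gene Cst3 (0.978) and the chemokine gene Ccl11 (0.978). Ms4a7 was most like the cytokine gene Il10 (0.986), followed by Clec12a (0.957), Mt2 (0.957), Bhlhe40 (0.956) and Selenom (0.952).

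Ms4a4b, Ms4a6b and Ms4a4c were most like other genes. Those most like Ms4a4b included Psmb5 (0.970), Pcna (0.969), Pmm1 (0.959) and Dut (0.947), of which Pcna and Dut act in DNA replication or nucleotide supply. Ms4a6b was most like Xlr4c (0.983), Cenpk (0.976), Naca (0.975), Gm6863 (0.973) and Nutf2-ps1 (0.970). Ms4a4c was most like Pin4 (0.969), Mrpl14 (0.964), Gm29216 (0.962), mt-Co2 (0.957) and Gm28661 (0.957), with the mitochondrial gene mt-Co2 at 802.4 CPM in heart, 460.3 in MLN and 410.7 in spleen.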

How the data were processed

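RNA-seq of sorted Tregs was analysed in 9 libraries, 3 each of heart, MLN and spleen, grouped by the labelled tissue. The authors deposited raw read counts per gene, not normalized. CASAVA 1.8.2, HISAT2, HTSeq 0.6.0 and the build mm10 are listed per the submitters' processing notes, with annotation and strand option not given in the sources used here. All count columns were used (0 left out). Reads were PCR-amplified without molecular identifiers, so floors of 3 counts cover counting error only. No library pair agreed within sampling noise.

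Genes kept by edgeR's filter (minimum count 10, minimum total 15; 16609 genes) were scaled by TMM and fitted with a term per organ in edgeR 4.0.16 (R 4.3.3, quasi-likelihood test, two-sided, Benjamini-Hochberg over all genes, called below 0.05). Residual degrees of freedom were 6, and the biological coefficient of variation was 102%. SEs come from the F statistic. The code was tested on simulated data with less spread than the real libraries, which checks the code and not what these libraries can detect. Of the gene identifiers, 49412 were found in GENCODE vM21 (GRCm38), which gave coordinates, exon lengths and shared 50-base words. Promoters are from RefSeq. Likeness used log2 CPM with a prior count of 2. Alternatives were DESeq2 1.42.0, limma-voom 3.58.1, other scaling and filters, a replicate block, only the organs compared, and leaving libraries out.

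The 7 genes and all lists were chosen with earlier results of these data known. Named were all 7 genes, other family genes reaching 1 CPM in any organ, 4 partners (Tnfrsf18, Clec7a, Vsig4, Trem2), any partner called, and the 5 most alike genes; marker genes, BE692007 and other neighbours named beside a result were picked after their values were seen. Some genes that these rules would name are not reported here.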

Additional observations from a re-analysis of the deposited data

How the results depend on the processing

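Ms4a4a, Ms4a6c, Ms4a6d and Ms4a7 stayed higher in heart than in spleen and MLN under all 17 alternatives, with log2 ranges against spleen of 2.70 to 3.21, 2.05 to 2.87, 3.62 to 4.19 and 4.35 to 6.48. These genes were grouped because each heart library was above each lymphoid one, so leaving libraries out could hardly turn their direction. The kept direction therefore describes the grouping and is no test. Calls changed with the alternative. The count of genes called against spleen and against MLN was 2423 and 2816 with DESeq2, 1141 and 1332 with limma-voom, 223 and 369 with the stricter filter (a minimum count of 50), and 292 and 548 with only the organs compared. Between MLN and spleen DESeq2 called 813 genes and limma-voom 3. Of the 7 genes, DESeq2 called 4 against spleen, all higher in heart, beside 1699 of 20778 genes called higher there. As the rule used this contrast, that count describes the choice. Without spleen 3, MLN 3 and heart 2, a choice made after seeing the data, 3 and 4 genes were called against spleen and MLN, and 0 and 0 of the 7. Leaving out 1 library gave 0 to 122 genes against spleen, 0 to 249 against MLN and 0 to 0 between MLN and spleen, and among the 7 genes 0 to 2, 0 to 3 and 0 to 0.

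Same-numbered libraries showed little shared deviation (correlations from -0.127 to 0.114). Whether equal numbers mark the same animals or pools is not given. A weak shared effect could be hidden by the spread between libraries, so this does not decide whether the libraries are paired. With the replicate block 0, 0 and 0 genes were called in the comparisons of heart with spleen, heart with MLN and MLN with spleen, and 0 of the 7. Between MLN and spleen the sign turned for Ms4a6d without spleen 2 (0.23) or MLN 3 (0.23; range without 1 library -0.30 to 0.23), and for Ms4a4c without spleen 3 (-0.15; range -0.15 to 0.93) or without the 3 libraries named above (-0.18). The difference of Ms4a7 there ranged from -5.29 to -0.96 over the alternatives, and that of Ms4a4b from 0.18 to 1.14. The cause was not tested. With 3 libraries per organ, differences smaller than the spread between libraries were not detectable.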
